A study of Mus musculus with 9 samples.

Results

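The genes described here are 31 autophagy and lysosome genes, followed in mouse pancreas during experimental acute pancreatitis with and without Qingyi Decoction (QYD), a herbal preparation. They were taken by symbol from a table of 17132 genes. All 31 were in the table and all 31 passed the filter on low counts, which left 12828 genes for testing. C57BL/6 wild-type mice fell into 3 groups of 3 libraries. Control animals received 7 hourly intraperitoneal injections of saline. Model animals received caerulein, a peptide that overstimulates the enzyme-secreting acinar cells, on the same schedule, with lipopolysaccharide (LPS) added at the last injection, and were then given saline in place of the decoction. QYD animals received the same caerulein and LPS, and the decoction at 0 and 8 h. Pancreas was taken at 24 h, so each animal gave 1 time point and the order of events before it was not measured. The model is a drug-induced injury, and caerulein and LPS were given together, so their separate effects cannot be told apart. The labels do not state that every library came from a separate animal. The p-values set group differences against the spread between these libraries.

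Autophagy encloses cytoplasm in a double membrane, the autophagosome, which fuses with lysosomes for degradation of its content. The ULK1 kinase and the Beclin 1 lipid kinase complex start the membrane, 2 ubiquitin-like conjugation reactions attach LC3 and GABARAP proteins to it, and cargo receptors such as p62 bind ubiquitinated material to LC3. The lysosome is acidified by the V-ATPase, a proton pump with a membrane sector and an ATP-hydrolysing sector, and many of its genes are targets of the transcription factors TFEB and TFE3. In acinar cells, impaired flux through this pathway, with swollen vacuoles and premature trypsinogen activation, is a known feature of experimental pancreatitis. Transcript levels do not measure flux.

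The libraries held between 19112923 and 20212744 counts each. In Control, the 50 most abundant genes took 90.6 to 91.1% of all counts, against 64.6 to 70.2% in Model and 65.6 to 71.9% in QYD. Values are therefore given on 2 scales: CPM, the count scaled to a fixed library size, after trimmed mean of M-values (TMM) scaling, which sets the bulk of genes level between groups, and scaling by library totals alone. Between these scales the median log2 fold change of all genes shifted by 2.15 for Model against Control and by 2.03 for QYD against Control. The 12 acinar markers were all detected and took 26.2 to 32.2% of Control counts, 21.8 to 24.4% of Model counts and 20.2 to 21.0% of QYD counts. In Model against Control, 12 of 12 acinar markers were lower on the TMM scale (9 lower and 2 higher by library totals). On the TMM scale 10 of 12 neutrophil markers were higher and 0 lower, and 7 of 14 macrophage markers were higher and 1 lower. By library totals 12 of 12 and 14 of 14 were higher. Of all genes tested, 21.3% were higher and 21.3% lower after TMM, and 94% were higher and 0.943% lower by library totals. The summed TMM-scaled level of the neutrophil markers ran from 10.6 to 44.7 CPM in Control, 142 to 202 in Model and 162 to 303 in QYD, that of the macrophage markers from 141 to 246, 259 to 443 and 331 to 367, and that of 8 duct markers from 261 to 338, 572 to 897 and 452 to 763. By gene, 4 of the 8 duct markers were higher in Model against Control on the TMM scale, 1 was lower and 3 were not called. By library totals 7 of the 8 were higher and 0 lower. No marker of these 4 types was at 0 throughout a group. The part of these cell types in the changes below was not tested, and in whole tissue fewer cells of a type and less RNA per cell cannot be told apart.

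The summed level of the 31 genes overlapped between groups after TMM and was several-fold lower in Control on library totals. TMM-scaled levels summed to 1380 ± 40.4 CPM in Control, 1370 ± 5.77 in Model and 1360 ± 55.1 in QYD (SD, n = 3 each). In Control, Gabarap at 228, Sqstm1 at 177 and Lamp1 at 174 CPM made up a large part of the sum. On library totals the same sums were 528 ± 27.2, 2320 ± 212 and 2120 ± 206 CPM, or 0.0499 to 0.0553%, 0.208 to 0.248% and 0.192 to 0.233% of all counts. In Model against Control, 10 of the 31 rose and 6 fell on the TMM scale, or 32.3% and 19.4%, where 21.3% of all 12828 genes rose, 21.3% fell and 42.6% did either (edgeR quasi-likelihood test, Benjamini-Hochberg adjusted p below 0.05). At an unadjusted p below 0.05 there were 19 of the 31, beside 50.5% of all genes. The median log2 difference was 0.07 over the 31 genes and 0.04 over all genes tested. On library totals all 31 were higher, with a median of 2.21, where 94% of all genes were higher and 0.943% lower. The 3 Model libraries lay entirely above the 3 Control libraries for 11 members and entirely below for 9, against 27.4% and 24.9% of all genes on the TMM scale.

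**Figure D1:**
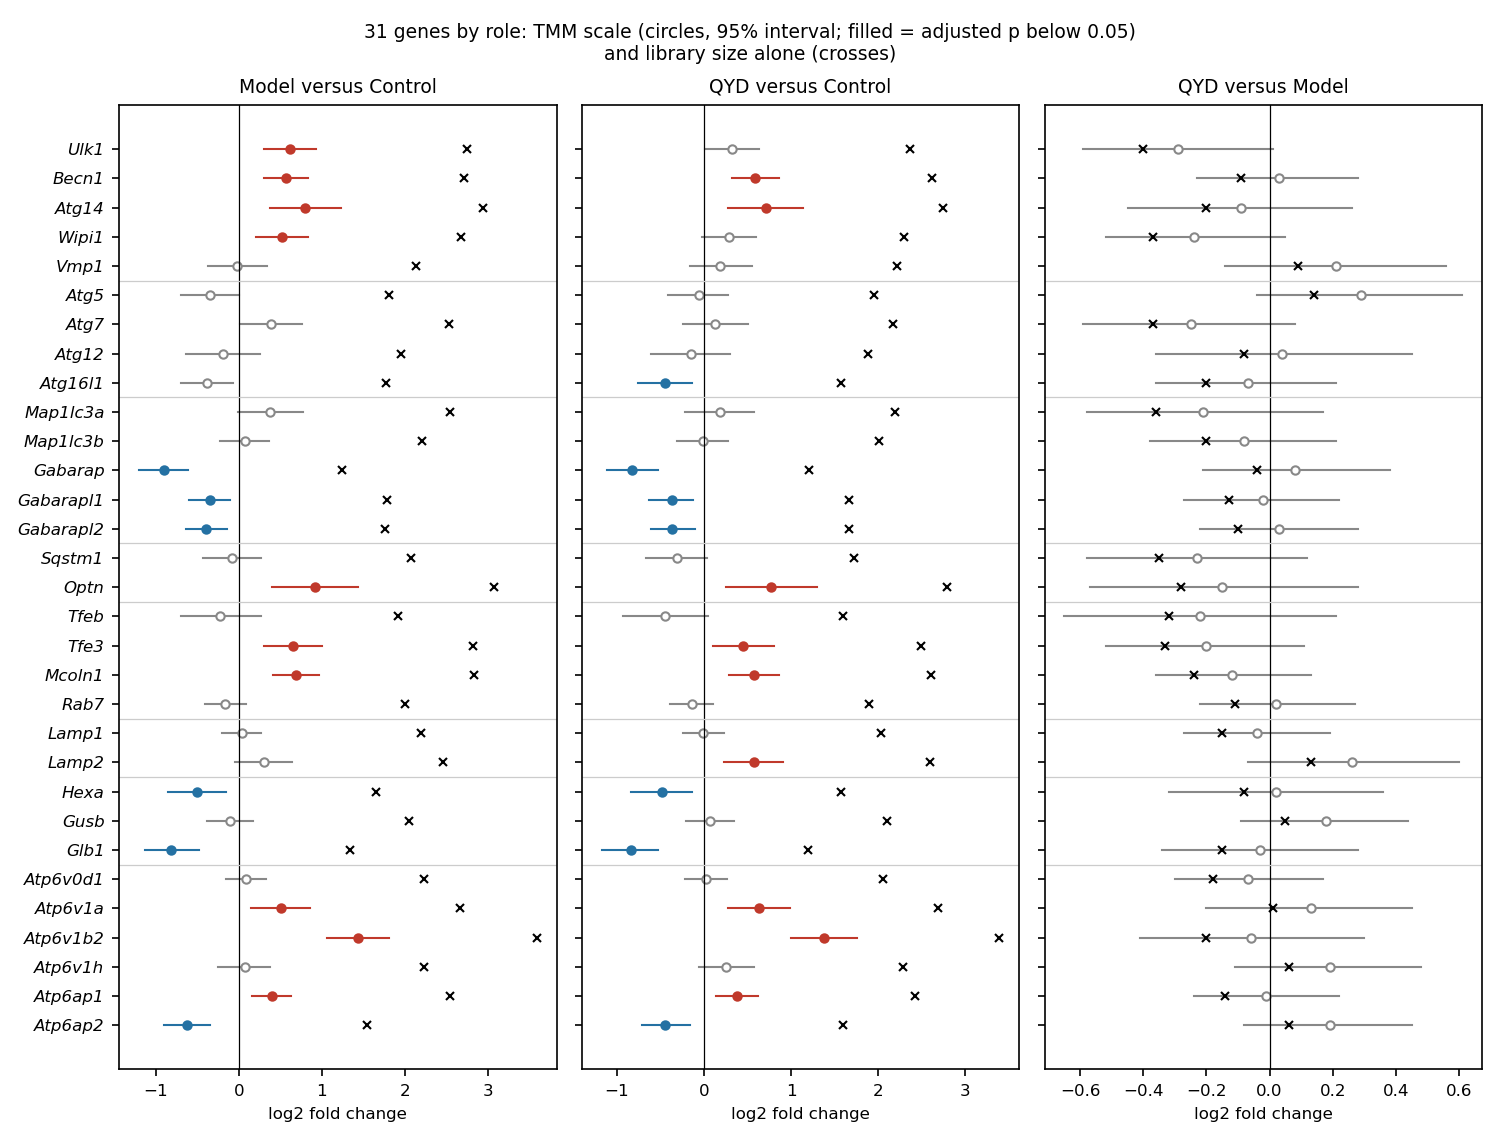
Log2 fold changes of the 31 genes, ordered by role, for Model against Control, QYD against Control and QYD against Model. Circles with 95% intervals are on the TMM scale, filled where the adjusted p was below 0.05 (red higher, blue lower, grey not called), and crosses are the same differences on library totals; all crosses lie to the right of 0 in the first 2 panels, including those of the genes in blue, and every circle of the third panel, whose axis is narrower, is open.

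Of the 5 members that start and extend the autophagosome membrane, 4 rose in Model and 0 fell, with a median log2 difference of 0.57. Of all genes tested, 21.3% rose and 21.3% fell. Of 10 further genes in the initiation and lipid kinase complexes 1 was higher and 2 lower, with a median of 0.08. Ulk1, the initiating kinase, measured 25.9, 30.3 and 27.5 CPM in Control libraries 43, 44 and 45. It measured 35.6, 44.7 and 47.9 CPM in Model libraries 56, 57 and 59. Every Model library lay above every Control library, and the log2 difference was 0.62 ± 0.14 (SE, adjusted p = 0.0049). Atg14, the subunit that directs the lipid kinase complex to autophagy, measured 2.38, 3.69 and 3.81 CPM in Control and 5.47, 5.33 and 6.59 CPM in Model. Its groups did not overlap either, and it rose by 0.80 ± 0.19 (adjusted p = 0.0067), with 17 to 30 counts per Control library. Becn1, which encodes Beclin 1, measured 20.0, 25.3 and 25.4 CPM in Control and 34.9, 33.4 and 36.6 CPM in Model. The lowest Model library stood well above the highest Control library, a log2 difference of 0.57 ± 0.12 (adjusted p = 0.0037). Becn1 had fractional counts in 7 of 9 libraries, so some of its reads were shared with another gene and its level is uncertain. Wipi1, which binds phosphatidylinositol 3-phosphate on the forming membrane, measured 10.5, 11.8 and 12.7 CPM in Control and 16.7, 18 and 15.8 CPM in Model. It rose without overlap by 0.52 ± 0.14 (adjusted p = 0.012). Vmp1, a scramblase of the endoplasmic reticulum needed for autophagosome formation, was 56.3 ± 6.34 CPM in Control and 55.6 ± 10.8 CPM in Model, a log2 difference of -0.02 with a 95% interval from -0.37 to 0.34.

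The conjugation machinery gave no call after TMM in Model against Control for any of its 4 members. On library totals 4 of 4 were higher, with a median of 1.89, where 94% of all genes were higher. Atg16l1, which places the conjugation enzyme on the membrane, was nearest to one: it measured 6.85, 8.66 and 7.63 CPM in Control and 5.78, 6.22 and 5.83 CPM in Model. Its groups did not overlap, and the log2 difference was -0.38 ± 0.14 (adjusted p = 0.051) against 1.77 on library totals. Without Control 43 it became -0.45 (adjusted p = 0.036). Atg5, the partner of Atg12 in the conjugate, measured 14.7, 12.4 and 15.9 CPM in Control and 12.2, 11.9 and 9.55 CPM in Model (-0.35 ± 0.16, adjusted p = 0.097). Atg7, the activating enzyme of both reactions, measured 5.59, 9.17 and 6.36 CPM in Control and 8.90, 9.50 and 9.35 CPM in Model. Control 44 alone lay within the Model range, and the difference of 0.39 ± 0.17 (adjusted p = 0.087) became 0.63 (adjusted p = 0.0068) without it. Atg12 was 6.03 ± 1.22 CPM in Control and 5.28 ± 1.09 CPM in Model (-0.19 ± 0.20, adjusted p = 0.49).

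The LC3 and GABARAP proteins, which are conjugated to the membrane and recruit cargo, split between their 2 branches. The 3 GABARAP genes were lower in Model on the TMM scale, and neither LC3 gene was called. Gabarap measured 257, 219 and 209 CPM in Control against 111, 129 and 126 CPM in Model. The highest Model library stood far below the lowest Control library, and Gabarap fell by 0.90 ± 0.13 on the log2 scale after TMM (adjusted p = 4e-04) but was 1.25 higher on library totals. Gabarapl1 measured 36.2, 39.0 and 35.7 CPM in Control and 25.9, 30.1 and 31 CPM in Model, a log2 difference of -0.35 ± 0.11 (adjusted p = 0.028) after TMM and 1.79 on library totals. Gabarapl2 measured 34.4, 33.1 and 29.1 CPM in Control and 24.4, 24.2 and 25.1 CPM in Model, a difference of -0.39 ± 0.12 (adjusted p = 0.019) after TMM and 1.76 on library totals. In neither gene did the groups overlap, yet neither call held in every fit that left out 1 library. That of Gabarapl1 was lost without Control 44 (-0.31, adjusted p = 0.069), Model 56 (-0.27, adjusted p = 0.11) or Model 57 (-0.38, adjusted p = 0.057), and that of Gabarapl2 without Control 43 (-0.34, adjusted p = 0.055), Model 56 (-0.38, adjusted p = 0.052) or Model 57 (-0.38, adjusted p = 0.062). Both were also lost with no filter on low counts (-0.29, adjusted p = 0.094, and -0.33, adjusted p = 0.061), and Gabarapl1 in a fit of the compared groups only (-0.36, adjusted p = 0.055). Map1lc3b, the LC3 form used as the standard autophagosome marker, measured 113, 136 and 130 CPM in Control and 113, 138 and 147 CPM in Model. Its groups overlapped almost wholly, with a log2 difference of 0.07 and a 95% interval from -0.22 to 0.37. Map1lc3a measured 21.1, 24.4 and 22.2 CPM in Control and 36.5, 27.8 and 24.0 CPM in Model (0.38 ± 0.18, adjusted p = 0.11), and the difference became 0.51 (adjusted p = 0.048) without Model 59, the lowest Model library.

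Of the cargo receptors, Optn rose and Sqstm1 was not called. Optn, which encodes optineurin, measured 1.96, 2.29 and 3.31 CPM in Control and 5.95, 4.20 and 4.21 CPM in Model. Model 56 was the highest, and all 3 Model libraries exceeded all 3 Control libraries (0.92 ± 0.24, adjusted p = 0.0092), at no more than 26 counts per Control library. Sqstm1, which encodes p62, measured 161, 218 and 152 CPM in Control and 193, 149 and 160 CPM in Model. The groups overlapped, with a log2 difference of -0.08 and a 95% interval from -0.43 to 0.27 after TMM against 2.08 on library totals.

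**Figure D2:**
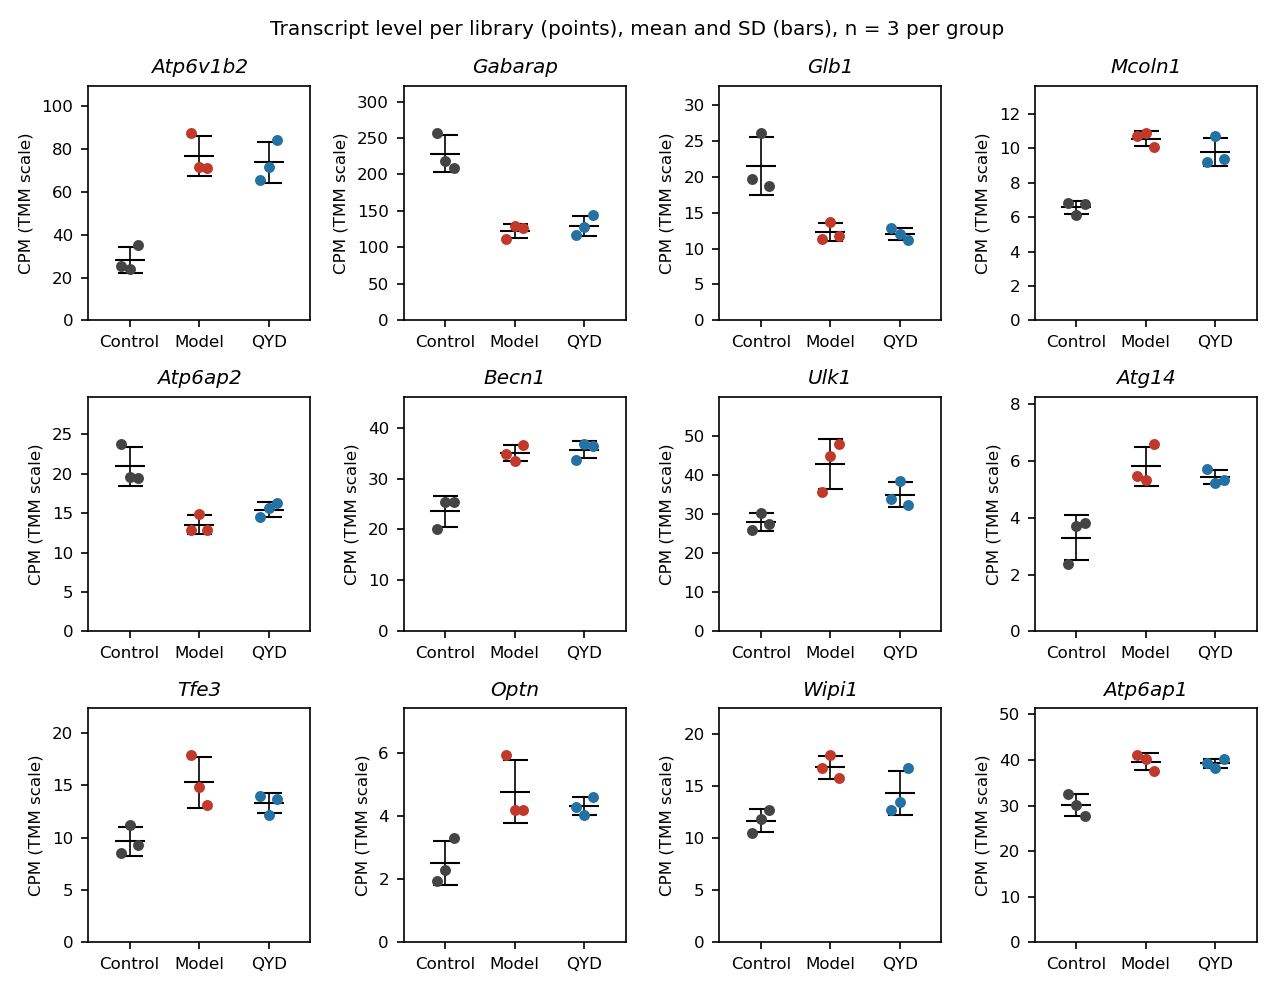
TMM-scaled CPM of the 12 genes with the smallest p in Model against Control, 1 panel per gene with its axis from 0, with each library as a point and the mean and SD of 3 libraries as bars. In all 12 panels the Model points are separated from the Control points; Gabarap, Glb1 and Atp6ap2 are lower in Model on this scale and 1.25, 1.34 and 1.54 higher (log2) on library totals.

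Among the regulators of lysosomal genes, Tfe3 rose while Tfeb gave no call after TMM. Tfe3 measured 8.53, 11.2 and 9.28 CPM in Control and 17.9, 14.8 and 13.1 CPM in Model, with no overlap (0.66 ± 0.16, adjusted p = 0.0065). Tfeb was much the rarer transcript, at 2.80, 3.31 and 3.18 CPM in Control and 2.52, 2.50 and 3.00 CPM in Model (-0.22 ± 0.22, adjusted p = 0.46). Both factors are regulated chiefly by phosphorylation and nuclear entry, which transcript counts do not show. Mcoln1, which encodes the calcium channel TRPML1 of the lysosomal membrane, measured 6.85, 6.11 and 6.74 CPM in Control and 10.7, 10.9 and 10.1 CPM in Model. Both groups were narrow and well apart (0.69 ± 0.13, adjusted p = 0.0015). Rab7, the GTPase of late endosomes and lysosomes, was 99.0 ± 5.09 CPM in Control and 88.6 ± 4.62 CPM in Model (-0.16 ± 0.11, adjusted p = 0.28).

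Lamp1 and Lamp2 encode the most abundant glycoproteins of the lysosomal membrane, and neither was called in Model after TMM. On library totals they were higher by 2.19 and 2.46, where 94% of all genes were higher. Lamp1 measured 170, 180 and 173 CPM in Control, 176, 181 and 180 CPM in Model and 179, 175 and 167 CPM in QYD. The groups overlapped, and the Model difference of 0.04 had a 95% interval from -0.20 to 0.27. Lamp2 measured 113, 80.5 and 106 CPM in Control and 114, 135 and 121 CPM in Model. The groups were just separated, but the difference of 0.30 ± 0.15 was not called (adjusted p = 0.14). Of the 3 glycosidases, Glb1 and Hexa fell after TMM and Gusb was not called. Glb1, which encodes acid beta-galactosidase, measured 19.7, 26.1 and 18.7 CPM in Control and 11.4, 13.7 and 11.7 CPM in Model, and fell by 0.81 ± 0.15 (adjusted p = 0.0013) without overlap after TMM, against a rise of 1.34 on library totals. Hexa, the alpha subunit of beta-hexosaminidase, measured 22.2, 27.5 and 20.7 CPM in Control and 13.7, 18.9 and 17.3 CPM in Model, a difference of -0.50 ± 0.16 (adjusted p = 0.027) after TMM and 1.65 on library totals. Its groups were separate, but the call was lost without Control 44 (-0.36, adjusted p = 0.11) or Model 56 (-0.37, adjusted p = 0.094). Without Model 56 the number of members called lower dropped from 6 to 3. Gusb, beta-glucuronidase, was 21.0 ± 2.67 CPM in Control and 19.5 ± 1.75 CPM in Model (-0.10 ± 0.13, adjusted p = 0.53).

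TFEB and TFE3 bind an E-box with the letters CACGTG, which in many lysosomal genes is extended by flanking bases to the CLEAR element. The RefSeq promoter table on GRCm38.p6 gave 31 windows, each the 250 bases before an annotated transcript start, for 25 of the 31 genes. It matched none for Atg12, Atg16l1, Atp6v1b2, Atp6v1h, Becn1 and Map1lc3a. Of the 31 windows, 9 lay wholly inside their own gene, before an internal start, and 3 partly inside. CACGTG, searched on both strands, was in a window of 6 of the 25 genes (24.0%), against 6.86% of all 27025 genes with a window and 9.80% of 10228 tested genes. The longer TCACGTG, which contains it, was found for 5 (20.0%, against 3.58% of all genes and 5.67% of tested genes), and GTCACGTG, which contains both, for 4 (16.0%, against 2.11% and 3.78%). Windows with CACGTG belonged to 2 of 8 members that were higher in Model, Mcoln1 and Atp6v1a, to 1 of 6 that were lower after TMM, Glb1 (1.34 higher on library totals), and to 3 of 11 without a call, Lamp1, Atg5 and Atg7. The Atg7 window belongs to an internal start 27969 bases into the gene and its site is not shown. The start used for Atp6v1a lies 443 bases into its gene, and the Atg5 window reaches 17 bases into its gene. In the GENCODE gene annotation, the windows of Mcoln1, Glb1 and Atp6v1a overlapped exons of their own genes. The sites of Mcoln1, Atp6v1a, Glb1 and Lamp1 are shown because members that were higher, lower and not called after TMM carried nearly the same letters; Glb1, the lower one, was 1.34 higher on library totals. Capitals mark CACGTG with the flanking bases that extend it to TCACGTG or GTCACGTG on either strand, each site read on the strand of its gene.
Mcoln1, chr8:3500446-3500453, plus strand, first base 73 before the start: ggtcgcgcttGTCACGTGttcagttcag
Mcoln1, chr8:3500473-3500481, plus strand, first base 46 before the start: ggcgccccgcTCACGTGACcgcggcgcat
Atp6v1a, chr16:44139384-44139391, minus strand, first base 132 before the internal start: tttttttaaaTCACGTGAtaggcttaac
Glb1, chr9:114401028-114401035, plus strand, first base 50 before the start: ctgcttctgaGTCACGTGgcctacagag
Lamp1, the window chr8:13158911-13159160, plus strand: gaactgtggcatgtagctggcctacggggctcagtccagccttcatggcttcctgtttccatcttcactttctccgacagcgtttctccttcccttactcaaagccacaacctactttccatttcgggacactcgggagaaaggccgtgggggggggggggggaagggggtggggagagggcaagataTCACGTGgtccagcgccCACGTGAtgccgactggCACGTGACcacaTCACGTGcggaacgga

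The Lamp1 window held 4 copies within the last 62 bases before the start. A match of letters is a description of the sequence only. No binding was measured in these libraries.

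V-ATPase genes were called higher in Model more often than lower, where 21.3% of all genes were higher and 21.3% lower. Among the 6 members, 3 rose and 1, Atp6ap2, fell after TMM (1.54 higher on library totals), with a median log2 difference of 0.24. Atp6v1b2, the B2 subunit of the ATP-hydrolysing sector (GRCm38.p6 chr8:69088736-69113718), measured 25.6, 24.2 and 35.2 CPM in Control, 87.5, 71.6 and 71.1 CPM in Model and 65.5, 71.5 and 84.4 CPM in QYD. The lowest Model or QYD library was above the highest Control library by a wide margin, and the Model difference of 1.44 ± 0.17 (adjusted p = 0.00011, 2.71-fold) had the largest size and the smallest p of the 31 members. Atp6v1a, the catalytic A subunit that alternates with B2 in the same ring, measured 13.4, 9.93 and 15.0 CPM in Control and 19.2, 19.1 and 16.1 CPM in Model (0.51 ± 0.16, adjusted p = 0.026). Its groups were separate by a small gap, and the call was lost without Control 44 (0.36, adjusted p = 0.084), Model 56 (0.47, adjusted p = 0.071) or Model 57 (0.47, adjusted p = 0.071). In units of FPKM, which are scaled by transcript length, the Atp6v1b2 to Atp6v1a ratio was 2.79, 3.56 and 3.42 in Control, 6.65, 5.47 and 6.43 in Model and 4.67, 4.85 and 7.05 in QYD. Every Model and QYD library lay above every Control library, and this ratio within a library does not depend on the scaling of libraries.

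The accessory subunit genes Atp6ap1 and Atp6ap2 went apart. Atp6ap1 measured 32.6, 30.1 and 27.7 CPM in Control and 41.1, 40.2 and 37.5 CPM in Model, and rose without overlap by 0.40 ± 0.11 (adjusted p = 0.013). Atp6ap2, also known as the prorenin receptor, measured 23.8, 19.6 and 19.5 CPM in Control and 12.9, 14.9 and 12.9 CPM in Model, and fell without overlap by 0.62 ± 0.12 (adjusted p = 0.0023) after TMM, against a rise of 1.54 on library totals. After TMM, Atp6v0d1 of the membrane sector was not called (0.09, 95% interval from -0.15 to 0.33). Neither was Atp6v1h of the regulatory stalk (0.07, from -0.25 to 0.38).

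The other V-ATPase genes, 19 by list with 15 in the table, gave 6 higher and 0 lower in Model, with a median of 0.53. Together with the members this made 9 higher and 1 lower, Atp6ap2 (1.54 higher on library totals), of 21 genes. Of all genes tested, 21.3% were higher and 21.3% lower. The median of the 21 genes was 0.44 beside 0.04 for all genes tested. On library totals 21 of 21 were higher, with a median of 2.58 beside 2.19, where 94% of all genes were higher. Tcirg1, the a3 subunit of the membrane sector that is abundant in osteoclasts and macrophages, rose from 6.96 ± 0.325 to 14.8 ± 1.07 CPM (1.09 ± 0.14, adjusted p = 0.00014). Atp6v0c, the proton-carrying c subunit, rose from 52.9 ± 2.47 to 91.5 ± 8.98 CPM (0.79 ± 0.13, adjusted p = 6e-04). Atp6v1e1, of the stalk that joins the 2 sectors (0.65, adjusted p = 0.004), and Atp6v0e, of the membrane sector (0.53, adjusted p = 0.016), were also higher. In QYD against Control the same list of 21 gave 9 higher and 1 lower, again Atp6ap2 (1.60 higher on library totals), with a median of 0.38. There 20.5% of all genes were higher and 20.3% lower, with a median of 0.06. Both comparisons use the same Control libraries.

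**Figure D3:**
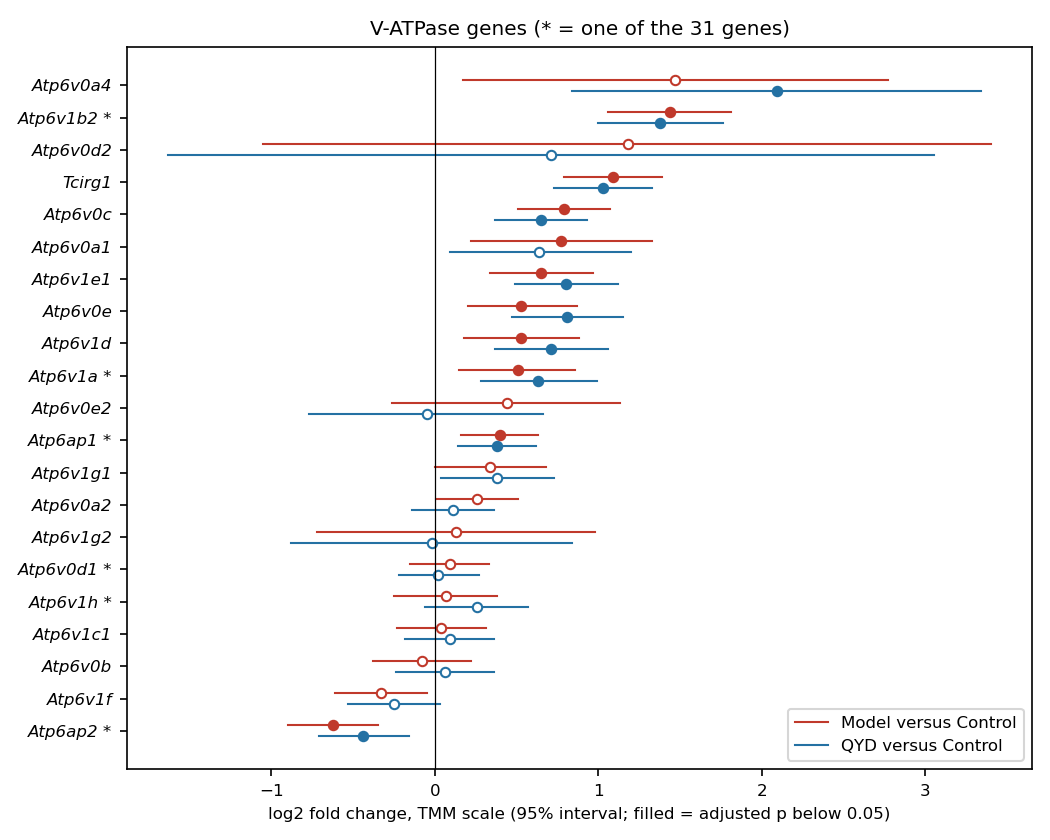
Log2 fold changes on the TMM scale of 21 V-ATPase genes against Control, for Model (red) and QYD (blue), with 95% intervals and filled points where the adjusted p was below 0.05; asterisks mark the 6 members. Atp6v1b2 and Tcirg1 have narrow intervals far to the right of 0, Atp6ap2 is the 1 gene with filled points to the left (1.54 and 1.60 higher on library totals), and Atp6v0a4 and Atp6v0d2 have wide intervals.

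The treatment comparison, QYD against Model, called none of the 31 genes. No gene of the 12828 was called by edgeR (0%), 0 of the 31 members and 750 of all genes (5.85%) had an unadjusted p below 0.05, and DESeq2 called 0 members as well. The members' differences ran from -0.29 to 0.29 with a median of -0.03, and their smallest adjusted p was 0.83. Ulk1 came nearest to a difference, with 33.9, 38.5 and 32.3 CPM in QYD libraries 65, 66 and 68. In Model it measured 35.6, 44.7 and 47.9 CPM. Its QYD values lay between the other groups but overlapped Model (-0.29 ± 0.14, 95% interval from -0.59 to 0.01, unadjusted p = 0.054). Wipi1, at 12.7, 13.5 and 16.7 CPM in QYD, gave -0.24 with an interval from -0.52 to 0.05. Atg5, at 11.8, 13.9 and 15.5 CPM, gave 0.29 with an interval from -0.04 to 0.61. QYD and Model libraries were fully separated for 2 members, Gusb with higher values in QYD (22.0, 22.8 and 21.5 CPM against 21.3, 19.5 and 17.8) and Atg7 with lower values (8.27, 7.40 and 7.56 CPM against 8.90, 9.50 and 9.35). Among all genes 8.56% were separated upward and 8.18% downward. The intervals do not show that the groups were alike: that of Sqstm1, at 150, 135 and 142 CPM in QYD, ran from -0.58 to 0.12, and that of Lamp2 from -0.07 to 0.60.

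Against Control, QYD animals had 9 members higher and 7 lower on the TMM scale (29.0% and 22.6%), where 20.5% of all genes were higher, 20.3% lower and 40.7% either. At an unadjusted p below 0.05 there were 17 of the 31, beside 49.7% of all genes. The median was 0.07, beside 0.06 for all genes, and on library totals 31 of 31 were higher, where 93.8% of all genes were higher and 0.99% lower. The comparison shares its Control libraries with the one above, so values are given side by side. Atp6v1b2 differed from Control by 1.38 ± 0.17 in QYD (adjusted p = 0.00017) and by 1.44 in Model. Becn1 differed by 0.59 (adjusted p = 0.0031) in QYD and 0.57 in Model, Mcoln1 by 0.57 (adjusted p = 0.005) and 0.69, and Atg14 by 0.71 (adjusted p = 0.014) and 0.80. Gabarap differed by -0.82 (adjusted p = 0.00082; 1.21 on library totals) in QYD and -0.90 (1.25) in Model. Glb1 differed by -0.84 (adjusted p = 0.0012; 1.2 on library totals) and -0.81 (1.34). Atp6v1a differed by 0.63 (adjusted p = 0.0093) and 0.51. Lamp2 measured 128, 154 and 160 CPM in QYD, above every Control library, and was called there (0.57 ± 0.15, adjusted p = 0.013) with 0.30 in Model. For Ulk1 (0.32, adjusted p = 0.088) and Wipi1 (0.29, adjusted p = 0.13) QYD was not called against Control. None of Lamp2, Ulk1, Wipi1 or Atg16l1 differed by test between QYD and Model, so these calls do not separate the treated groups.

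The remaining 8 calls of QYD against Control were each lost when 1 library was left out. Those higher were Tfe3 (0.45, adjusted p = 0.04), Optn (0.77, adjusted p = 0.024) and Atp6ap1 (0.38, adjusted p = 0.016). Tfe3 was lost without Control 43 (0.38, adjusted p = 0.12), Control 45 (0.43, adjusted p = 0.1), Model 57 (0.46, adjusted p = 0.053), QYD 65 (0.42, adjusted p = 0.1), QYD 66 (0.52, adjusted p = 0.051) or QYD 68 (0.44, adjusted p = 0.092). Optn was lost without Control 43 (0.63, adjusted p = 0.082), Control 44 (0.71, adjusted p = 0.076), QYD 65 (0.78, adjusted p = 0.05) or QYD 68 (0.73, adjusted p = 0.06), and Atp6ap1 without Control 45 (0.33, adjusted p = 0.054). Those lower after TMM were Atg16l1 (-0.45, adjusted p = 0.026; 1.57 on library totals), Gabarapl1 (-0.37, adjusted p = 0.022; 1.67), Gabarapl2 (-0.36, adjusted p = 0.029; 1.67), Hexa (-0.48, adjusted p = 0.033; 1.57) and Atp6ap2 (-0.44, adjusted p = 0.016; 1.60). Atg16l1 was lost without Control 44 (-0.36, adjusted p = 0.089), Control 45 (-0.46, adjusted p = 0.051), QYD 65 (-0.39, adjusted p = 0.086) or QYD 66 (-0.45, adjusted p = 0.068). Gabarapl1 was lost without Control 44 (-0.33, adjusted p = 0.058), QYD 66 (-0.38, adjusted p = 0.066) or QYD 68 (-0.33, adjusted p = 0.078). Gabarapl2 was lost without Control 43 (-0.31, adjusted p = 0.077), Control 44 (-0.33, adjusted p = 0.064), QYD 65 (-0.28, adjusted p = 0.11) or QYD 66 (-0.40, adjusted p = 0.052). Hexa was lost without Control 44 (-0.35, adjusted p = 0.13), QYD 66 (-0.51, adjusted p = 0.064) or QYD 68 (-0.39, adjusted p = 0.11), and Atp6ap2 without Control 43 (-0.33, adjusted p = 0.06), QYD 65 (-0.39, adjusted p = 0.061) or QYD 66 (-0.44, adjusted p = 0.05). The number of lower members dropped from 7 to 3 without Control 44, to 4 without QYD 65 and to 2 without QYD 66. With no filter on low counts the calls of Atg16l1 (-0.39, adjusted p = 0.073), Gabarapl1 (-0.32, adjusted p = 0.071), Gabarapl2 (-0.30, adjusted p = 0.088) and Hexa (-0.42, adjusted p = 0.06) were lost. Tfe3 was also lost with RLE scaling (0.43, adjusted p = 0.051) and DESeq2 (0.45, adjusted p = 0.05), and in a fit of the compared groups only Atg16l1 (-0.46, adjusted p = 0.051) and Gabarapl2 (-0.37, adjusted p = 0.055) were lost. Atp6v1h became higher without Control 43 (0.41, adjusted p = 0.036).

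Levels were compared between genes by FPKM on library totals. In Control the order was led by Gabarap at 87.2 ± 4.96 FPKM, followed by Sqstm1 at 35.9 ± 7.90, Lamp1 at 31.7 ± 2.29 and Map1lc3b at 30.5 ± 4.32. Gabarap was clear of the rest, and the next 3 did not differ beyond their spread. Atg14 (0.380), Optn (0.423) and Tfeb (0.543 FPKM) were lowest. Gabarap also led in Model, at 207 ± 17.7 FPKM, and in QYD, at 203 ± 7.46 FPKM. In Model against Control it was the member with the largest fall after TMM (1.25 higher on library totals). Atp6v1b2 had the 15th level in Control, at 4.15 ± 1.03 FPKM, and the 8th in Model, at 50.0 ± 9.93. The Gabarapl1 to Gabarap ratio was 0.0987 ± 0.012 in Control, 0.143 ± 0.00493 in Model and 0.134 ± 0.0206 in QYD, and the Lamp1 to Lamp2 ratio was 1.79 ± 0.343, 1.58 ± 0.155 and 1.32 ± 0.208 FPKM per FPKM.

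**Figure D4:**
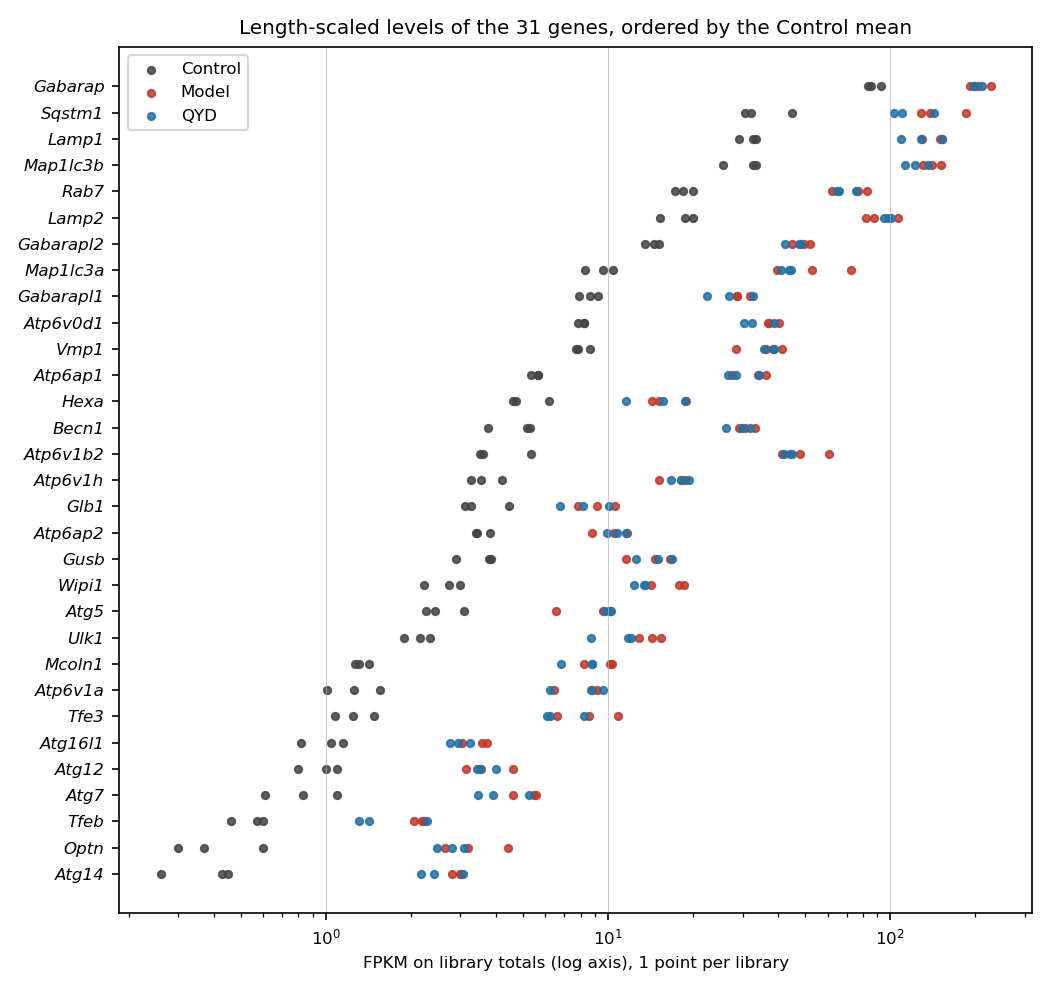
FPKM of the 31 genes on a log axis, 1 point per library, ordered from the lowest Control mean (Atg14) to the highest (Gabarap). On library totals all genes have Model and QYD points to the right of the Control points, and the smallest steps are those of Gabarap and Glb1.

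Other genes of the pathway were taken from lists. Of 47 other autophagy genes, 6 were higher and 11 lower in Model after TMM, with a median of 0.05. Of all genes tested, 21.3% were higher and 21.3% lower, with a median of 0.04. The same shares apply to the counts by role below. In the initiation and lipid kinase complexes, Pik3r4 was higher (0.72, adjusted p = 0.031), while Nrbf2 (-0.53, adjusted p = 0.0081; 1.62 on library totals) and Atg13 (-0.37, adjusted p = 0.034; 1.77) were lower after TMM. None of 7 further conjugation genes rose, and Atg3 (-0.60; 1.56 on library totals), Atg4a (-0.64; 1.51) and Atg4d (-0.67; 1.47), which process or attach LC3, were lower after TMM. Among 10 further cargo receptors, 2 were higher and 4 lower. Retreg1, a receptor for endoplasmic reticulum, measured 249 ± 116 CPM in Control and 56.7 ± 5.17 in Model, a difference of -2.13 ± 0.33 (adjusted p = 0.00047) after TMM and 0.03 on library totals. Bnip3, a mitophagy receptor, differed by -1.39 ± 0.20 (adjusted p = 3e-04) after TMM and 0.78 on library totals. Tollip (-0.68; 1.47 on library totals) and Nbr1 (-0.40; 1.74) were the other lower ones after TMM, and the 2 higher ones, named after their values were seen, were Wdfy3 (0.54) and Bnip3l (0.31). Of 12 genes for fusion with lysosomes, 2 were higher and 1 lower after TMM, with a median of 0.07, and 12 were higher on library totals. Of 8 lipid transfer genes, 1 was higher and 1 lower. The higher one was Atg9b, from 2.17 ± 0.317 to 9.52 ± 3.45 CPM (2.12 ± 0.35, adjusted p = 0.00073), while its widely expressed relative Atg9a, a lipid scramblase of the vesicles that seed the membrane, was lower after TMM (-0.52, adjusted p = 0.0098) and 1.62 higher on library totals. In QYD against Control, which uses the same Control libraries, the 47 genes gave 6 higher and 9 lower. In that comparison 20.5% of all genes were higher and 20.3% lower.

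Of 46 lysosomal genes outside the 31, 17 rose and 3 fell in Model after TMM, with a median of 0.34, where 21.3% of all genes rose and 21.3% fell with a median of 0.04. On library totals 46 of 46 were higher, with a median of 2.49 beside 2.19 for all genes. Hydrolases gave 9 higher and 2 lower of 26, among them Tpp1, a tripeptidyl peptidase (0.97 ± 0.13, adjusted p = 0.00025), and Gla, alpha-galactosidase (1.08, adjusted p = 0.0011). The 2 lower hydrolases, named after their values were seen, were Man2b1 (-0.65 after TMM, 1.50 on library totals) and Arsb (-0.41 after TMM, 1.74 on library totals). Membrane and lumen proteins gave 6 higher and 0 lower of 15, including Npc1, the cholesterol exporter (0.92, adjusted p = 0.0012). Cd68, which was also among the macrophage markers, differed by 1.44 ± 0.29 (adjusted p = 0.0027), and the summed level of those markers was 141 to 246 CPM in Control against 259 to 443 CPM in Model. Of 5 sorting genes, 2 were higher and 1 lower. M6pr, the cation-dependent mannose 6-phosphate receptor (0.95 ± 0.13, adjusted p = 0.00025), and Igf2r, the cation-independent one (0.55 ± 0.19, adjusted p = 0.038), rose, and Gnptg, a subunit of the enzyme that makes the mannose 6-phosphate tag, was lower after TMM (-1.22 ± 0.15, adjusted p = 0.00013) and 0.93 higher on library totals. In QYD against Control the list gave 17 higher and 2 lower, where 20.5% of all genes were higher and 20.3% lower.

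Genes of mTORC1, the nutrient-sensing kinase complex that restrains ULK1 and TFEB, and of its control gave counts close to those of all genes: 6 of 28 rose and 6 fell in Model after TMM, where 21.3% of all genes rose and 21.3% fell. Their median was -0.18 (1.97 on library totals). Rheb, the GTPase that activates mTORC1 (-1.01 ± 0.14, adjusted p = 0.00027; 1.15 on library totals), and Lamtor2, which anchors it to the lysosome (-1.05, adjusted p = 0.00054; 1.10), were lower after TMM. The stress-induced inhibitors went apart, with Sesn2 higher (0.92, adjusted p = 0.0011) and Sesn1 lower after TMM (-1.81, adjusted p = 0.001; 0.33 on library totals). In QYD against Model, 0 genes of these lists were called.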

How the data were processed

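Pancreas mRNA of 9 libraries, 3 per group, was compared. Per the submitters' processing notes RSEM 1.2.12, Bowtie2 2.2.5, HISAT2 2.0.4 and the build GRCm38.p6 were used. The role of each, the strandedness and the annotation were not given in the sources used here. In the deposited table, the authors gave estimated counts per gene and FPKM values per library, the latter scaled to library totals and transcript length. TPM values in the same table were not used.

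Estimated counts, 93.5% of them whole, were rounded. Genes with low counts were removed with the default filter of edgeR 4.0.16 (R 4.3.3), leaving 12828 and removing 4304 of 17132. Libraries were scaled by TMM (mean factors 0.382 in Control, 1.70 in Model and 1.56 in QYD), and 1 quasi-likelihood fit over all 9 libraries, with group as the term and 6 residual degrees of freedom, gave each comparison. P-values were adjusted by Benjamini-Hochberg over all genes. The common biological coefficient of variation was 0.175. Fits were checked on simulated data, in which few genes were changed by known folds and the rest were level between groups. That setting does not test how these libraries should be scaled. Replicate pairs differed far beyond sampling noise (chi-square per degree of freedom 14.8 to 52.4), and each library was counted as 1 sample. Since repeat preparations of 1 animal can also differ by more than sampling noise, this does not show that the animals were separate. Alternatives were scaling by library size or RLE, TMM that left out the 50 most abundant genes, other filters, DESeq2 1.42.0, limma 3.58.1 on FPKM, and leaving out each library.

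All 31 members were named, with values per library for the 12 of smallest p in Model against Control and the 3 of smallest p in QYD against Model, and for other members chosen after their values were seen. For each role in the further lists, at most 4 genes were named by smallest p among those averaging 1 CPM or more. Genes marked as named after their values were seen came on top of these. The members and lists were chosen with earlier results of these data known. Promoter windows and gene positions are those of RefSeq on GRCm38.p6, and overlaps of windows with exons are those of GENCODE.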

Additional observations from a re-analysis of the deposited data

How the results depend on the processing

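The scaling of libraries set the sign of 14 members in each comparison with Control. By library size alone, with edgeR, 31 of 31 members were higher and 0 lower in Model against Control (all genes 12185 called, 12064 higher and 121 lower) and in QYD against Control (12155, 12028 and 127). The values were 31, 31 and 0 again with limma on log2(FPKM + 1), where all genes gave 10083 called, 9981 higher and 102 lower for Model and 10077, 9974 and 103 for QYD, and on log2(FPKM + 0.1), with 10086, 9986 and 100 for Model and 10071, 9968 and 103 for QYD. In QYD against Model, limma called 0 members and 1 gene of all, lower, at either pseudocount. The members below changed sign under these 3 settings, by construction of the scaling, since the FPKM values were scaled to library totals. In Model against Control, values for library size, log2(FPKM + 1) and log2(FPKM + 0.1) were as follows, in log2 units. Atg12 gave 1.96, 1.27 and 1.85, Atg16l1 gave 1.77, 1.15 and 1.69, Atg5 gave 1.81, 1.43 and 1.70, and Atp6ap2 gave 1.54, 1.30 and 1.50. Gabarap gave 1.25, 1.24 and 1.25, Gabarapl1 gave 1.79, 1.68 and 1.78, Gabarapl2 gave 1.76, 1.69 and 1.75, and Glb1 gave 1.34, 1.14 and 1.33. Gusb gave 2.05, 1.75 and 1.99, Hexa gave 1.65, 1.48 and 1.63, Rab7 gave 2.00, 1.93 and 1.98, and Sqstm1 gave 2.08, 2.05 and 2.07. Tfeb gave 1.92, 1.03 and 1.82, and Vmp1 gave 2.13, 1.99 and 2.10. In QYD against Control they were as follows. Atg12 gave 1.88, 1.24 and 1.82, Atg16l1 gave 1.57, 0.99 and 1.49, Atg5 gave 1.95, 1.63 and 1.92, and Atp6ap2 gave 1.60, 1.37 and 1.57. Gabarap gave 1.21, 1.21 and 1.22, Gabarapl1 gave 1.67, 1.55 and 1.64, Gabarapl2 gave 1.67, 1.61 and 1.67, and Glb1 gave 1.2, 1.01 and 1.18. Hexa gave 1.57, 1.39 and 1.54, Lamp1 gave 2.03, 1.99 and 2.02, Map1lc3b gave 2.01, 1.99 and 2.02, and Rab7 gave 1.89, 1.84 and 1.88. Sqstm1 gave 1.72, 1.70 and 1.73, and Tfeb gave 1.60, 0.77 and 1.43.

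Without the low-count filter, members lower in QYD against Control dropped to 3, and those lower in Model against Control to 4, with the cause not tested. Gabarapl1 (-0.29, adjusted p = 0.094) and Gabarapl2 (-0.33, adjusted p = 0.061) lost their Model calls. Atg16l1 was called in Model with RLE scaling (-0.39, adjusted p = 0.047), with TMM that left out the 50 most abundant genes (-0.38, adjusted p = 0.049) and with a minimum of 5 CPM in 3 samples (-0.39, adjusted p = 0.037). DESeq2 kept every member on its side of the threshold in Model against Control and moved Tfe3 (adjusted p = 0.05) in QYD against Control.

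Leaving out each library in turn gave 12 to 17 members called in Model against Control (9 to 11 higher, 3 to 6 lower; all genes 4583 to 5307, with 2244 to 2681 higher and 2299 to 2626 lower). In QYD against Control it gave 10 to 16 (7 to 9 higher, 2 to 7 lower; all genes 4237 to 5139, with 2079 to 2577 higher and 2158 to 2562 lower), and 0 throughout in QYD against Model. The members called in Model in all 9 of these fits were the 12 of the plot of counts by group. The minimum of 5 CPM removed Tfeb, which then had no value. Counts of 14 to 26 per Control library limit Optn, as 17 to 30 limit Atg14. No paired analysis was possible because the labels give the groups no shared replicate numbers.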
